A study of Homo sapiens with 8 samples.

Results

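The 51 genes described here encode ligands of the transforming growth factor beta (TGF-beta) superfamily, their latent binding proteins, receptors, SMAD signal transducers, antagonists, other regulators and targets. They were taken by gene symbol from a list of pathway genes, and each of the 51 has a single row among the 25268 symbols of the deposited tables. Polyadenylated RNA was sequenced from 2 human fibroblast lines, line 1 and line 2, each a single source of cells. In each line 2 samples had been transfected with a non-targeting control siRNA and 2 with an siRNA against SUPT4H1. Lipofectamine RNAiMAX carried the siRNAs into all samples, and all cultures grew in DMEM with fetal bovine serum and antibiotics. The labels do not say how long the siRNAs acted or whether replicates were grown apart. With the line in the model, a p-value reflects the spread of the 8 samples that remains once line and siRNA are fitted. For single lines, their difference and control levels it reflects the spread within pairs of replicates. Part of either spread may be technical.

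TGF-beta ligands are secreted in a latent complex that latent binding proteins (LTBPs) tether to the matrix. Released ligands bring together type II and type I receptor kinases. These phosphorylate SMAD2 and SMAD3 on the TGF-beta and activin side, and SMAD1, SMAD5 and SMAD9 on the bone morphogenetic protein (BMP) side, and the phosphorylated SMADs enter the nucleus with SMAD4. In fibroblasts the pathway is known for driving matrix production and contractility. SUPT4H1 encodes SPT4, a subunit of the elongation factor DSIF, which travels with RNA polymerase II.

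Values are FPKM as deposited (fragments per kilobase of transcript, scaled to the mapped fragments of the sample), so levels are per length and can be compared between genes. Where 4 values follow each other they stand in the order line 1 (replicates 1 and 2), then line 2 (replicates 1 and 2). "The knockdown" is the SUPT4H1 siRNA. A log2 change is the difference in log2(FPKM + 1) between SUPT4H1 siRNA and control siRNA with the line as block, and a gene is called at an adjusted p under 0.05. This scale understates changes of genes of low FPKM. The values come from mixed cells of a culture, in which fewer cells of a type and less RNA per cell cannot be told apart.

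The targeted gene SUPT4H1 read 25.6, 25.6, 26.2 and 28.3 FPKM in the controls and 1.37, 1.43, 1.69 and 1.74 after the knockdown, so each sample labelled SUPT4H1 siRNA lay below each control. FPKM summed to 288293 to 305680 per sample, and the number of fragments behind them is not given. The deposited interval around a value, which covers counting error only, was at most 10.1% of it to either side for the 24 members whose mean was 10 FPKM or more, and up to 48.5% for the tested members below that. Of 11 fibroblast markers 9 could be tested, and the lowest, PDGFRA, averaged 72.6 FPKM. COL1A1 and COL1A2 are listed at 0 in all controls with a status other than OK, so these zeros are no measurement. Of the 9 tested, COL3A1, PDGFRA and PDGFRB fell and S100A4 rose over both lines, or 33.3% and 11.1%, against 15.0% and 26.4% of all genes. In line 2 alone 8 of the 9 fell and S100A4 rose, with a median log2 change of -0.16, where 15.5% of all genes fell and 26.3% rose. In line 1 alone 3 fell and 2 rose, with a median of 0.015, where 11.2% of all genes fell and 18.2% rose. The 5 epithelial markers summed to at most 0.142 FPKM in a sample, the 5 endothelial markers to 0.284 and the 4 melanocyte markers to 0.216. The 4 leukocyte markers summed to 45.1 to 51.9 FPKM in the controls and 59.4 to 78.1 after the knockdown. Nearly all of this was CD68, a lysosomal protein that fibroblasts also express. CD14 was the other leukocyte marker with a mean of at least 1 FPKM. Of these 2, CD68 rose (log2 change 0.48) and CD14 was not called (0.14). CD3E was listed at 0 throughout and PTPRC, which defines leukocytes, averaged 0.133 FPKM. The 4 neural markers summed to 17.5 to 35.7 FPKM in the controls and 17.3 to 30.9 after the knockdown, and the 1 tested fell (-0.12). The 4 smooth muscle markers summed to 2.68 to 10.2 and 2.25 to 14.97 FPKM, and CNN1 read 0.774, 0.868, 8.36 and 9.11 FPKM in the controls and 0.891, 0.971, 12.1 and 14.1 after the knockdown. The part of these shifts in the results was not tested.

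Of the 51 members 43 were tested, with a mean of at least 1 FPKM and a valid status in every sample. The knockdown lowered 18 of them and raised 7, and 18 were not called. Thus 41.9% of the tested members fell where 15.0% of all 11486 genes tested fell, and 16.3% rose where 26.4% of all genes rose. The members were chosen with earlier results of these data known, so these shares are a description and not a test. The median log2 change was -0.055 over the members and 0.031 over all genes. INHBE, counted among the 18, passed the filter only through its controls, so it had to be lower after the knockdown. Without it 17 of 42 members fell, or 40.5%. Falls were found among ligands (3 of 4 tested, or 2 of 3 without INHBE), latent binding proteins (3 of 4), receptors (3 of 9), secreted antagonists (5 of 6), intracellular and membrane regulators (3 of 8) and targets (1 of 4). Of the 8 SMADs, 0 fell (0 also at an unadjusted p under 0.05 in limma, with or without the line as block) and SMAD6 alone was called higher with the line as block. Without the line as block, the grouping of 4 against 4 that the series design states, 6 members fell (1.73% of all genes) and 0 rose (3.53% of all genes), and 3 members were higher and 11 lower at an unadjusted p under 0.05 in limma. Those are 6.98% and 25.6% of the members, where 14.1% and 6.51% of all genes were higher and lower by that measure. The 6 were the ligands TGFB1, INHBB and INHBE (5 members without INHBE), LTBP1, the receptor TGFBR1 and the antagonist CHRD, so 0 SMADs, regulators and targets were called without the block.

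**Figure D1:**
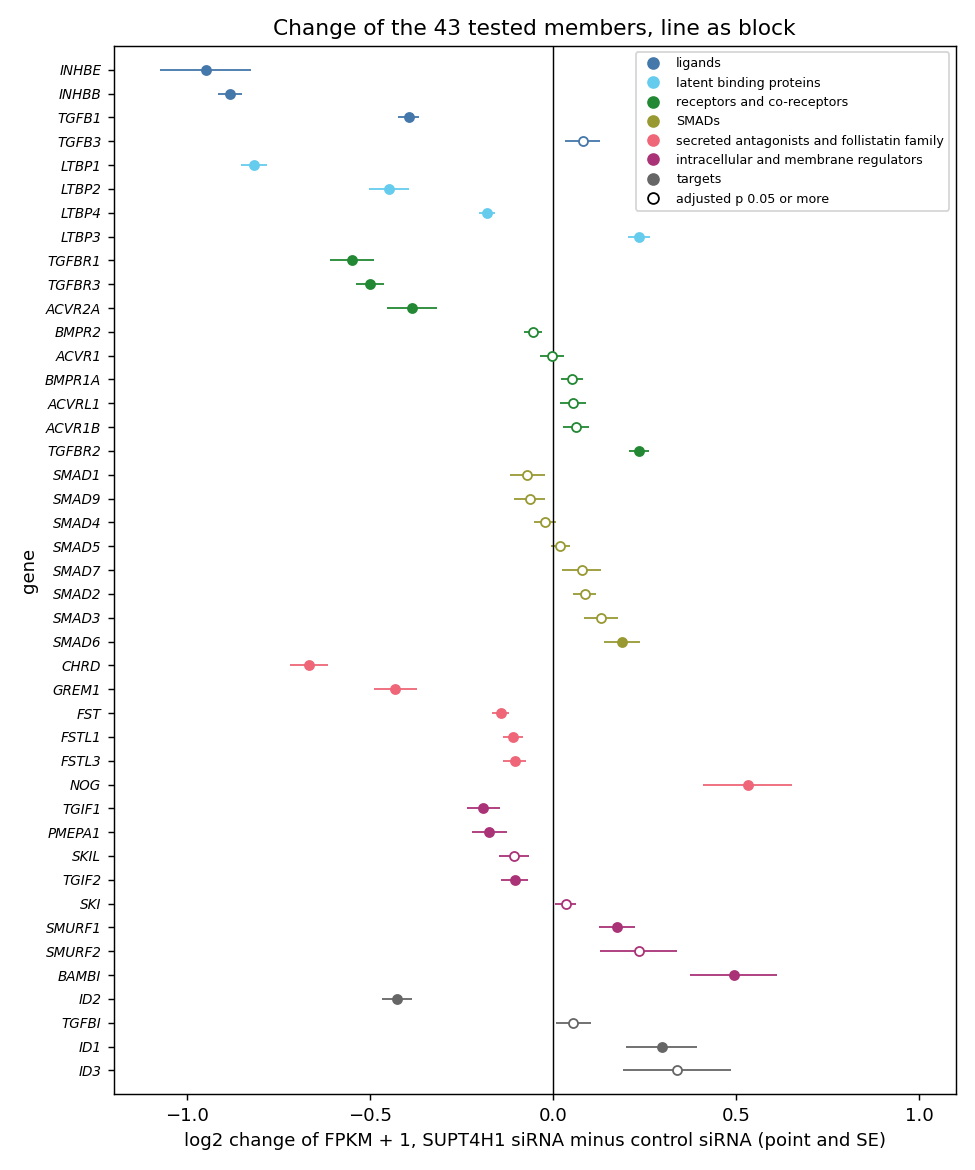
Log2 change of FPKM + 1 (x axis) for the 43 tested members (y axis, grouped by role), SUPT4H1 siRNA minus control siRNA with the line as block. Points are the fitted change, bars its SE, and open points were not called; the largest falls are INHBE, INHBB and LTBP1, the SMADs lie near 0, and NOG and BAMBI lie farthest to the right.

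The stretches of DNA just before the start sites of 6 members are shown because these members moved in different directions in the same samples. TGFB1, INHBB and ID2 fell, with the line as block and in each line. ID1 and BAMBI rose with the line as block, but in single lines ID1 was called in line 1 alone and BAMBI in line 2 alone. ID3 was called in line 1 alone and not with the line as block. Each is the 250 bases before the start of a RefSeq transcript on GRCh38.p14, read 5′ to 3′ on the gene's strand. Capitals mark CAGAC or its reverse complement, the core of SMAD binding elements, and GGCGCC, a GC-rich element bound by BMP SMADs. The TGFB1 window is chr19:41353923-41354172 (minus strand), INHBB chr2:120345886-120346135 (plus strand), BAMBI chr10:28677271-28677520 (plus strand), ID1 chr20:31605039-31605288 (plus strand), ID2 chr2:8681806-8682055 (plus strand) and ID3 chr1:23559502-23559751 (minus strand).
TGFB1: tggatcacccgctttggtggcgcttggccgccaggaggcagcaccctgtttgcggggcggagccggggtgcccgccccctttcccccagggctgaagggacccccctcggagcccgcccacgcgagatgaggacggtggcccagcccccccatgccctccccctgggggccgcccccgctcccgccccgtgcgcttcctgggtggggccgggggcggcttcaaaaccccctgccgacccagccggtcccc
INHBB: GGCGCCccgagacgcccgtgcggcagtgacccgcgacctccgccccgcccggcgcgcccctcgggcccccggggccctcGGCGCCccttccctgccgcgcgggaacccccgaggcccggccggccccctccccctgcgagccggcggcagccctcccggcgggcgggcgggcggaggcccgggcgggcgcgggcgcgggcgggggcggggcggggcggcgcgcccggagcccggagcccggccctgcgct
BAMBI: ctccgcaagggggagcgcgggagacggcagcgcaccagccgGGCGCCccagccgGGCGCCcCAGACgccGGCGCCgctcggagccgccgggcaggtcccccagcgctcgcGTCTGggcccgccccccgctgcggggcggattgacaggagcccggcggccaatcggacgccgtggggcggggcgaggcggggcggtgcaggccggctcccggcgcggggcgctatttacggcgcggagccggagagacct
ID1: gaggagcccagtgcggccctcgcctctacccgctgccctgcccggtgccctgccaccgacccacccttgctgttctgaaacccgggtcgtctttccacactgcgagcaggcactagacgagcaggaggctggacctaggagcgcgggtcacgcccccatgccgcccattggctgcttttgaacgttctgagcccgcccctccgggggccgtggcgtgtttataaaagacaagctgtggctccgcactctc
ID2: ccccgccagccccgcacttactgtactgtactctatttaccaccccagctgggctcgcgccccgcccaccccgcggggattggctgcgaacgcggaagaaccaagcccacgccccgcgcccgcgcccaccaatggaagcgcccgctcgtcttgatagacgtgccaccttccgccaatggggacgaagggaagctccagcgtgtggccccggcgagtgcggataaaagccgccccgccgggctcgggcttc
ID3: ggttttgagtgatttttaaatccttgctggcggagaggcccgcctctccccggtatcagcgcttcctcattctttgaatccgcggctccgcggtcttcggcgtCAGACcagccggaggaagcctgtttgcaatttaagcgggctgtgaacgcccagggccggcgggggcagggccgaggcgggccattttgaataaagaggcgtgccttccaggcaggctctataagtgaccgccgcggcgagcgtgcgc

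BAMBI held 2 matches to CAGAC and 3 to GGCGCC, INHBB 0 and 2, and ID3 1 and 0, with both strands searched. TGFB1, ID1 and ID2 held 0 matches to either in this window. INHBB also held 10 matches to GGGCGG, the GC box bound by SP1, some of which overlap. RefSeq windows were matched for 46 of the 51 members, with 88 start sites among them, and ACVRL1, BMP2, INHBE, NOG and SKI were not matched. CAGAC occurred in 38.6% of the 88 and in 38.00% of all 35116 windows of this length, GGCGCC in 26.1% against 16.4%, GGGCGG in 61.4% against 42.6%, and TATAAA, the TATA box, in 11.4% against 10.7%. The members' windows were richer in G and C, with a median of 65.2% against 58.00%. A match is a run of letters and was not tested as a binding site.

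Among the ligands, TGFB1 was the most abundant and fell. TGFB1 (chr19:41836436-41859838 in hg19), the main TGF-beta isoform of connective tissue, read 41.1, 41.7, 41.2 and 40.7 FPKM in the controls and 29.8, 30.7, 32.7 and 31.1 after the knockdown, a log2 change of -0.39 (adjusted p = 3.03e-05, SE 0.029). The 2 groups did not overlap, and the levels after the knockdown were 73.1% of control in line 1 and 77.98% in line 2. TGFB3 was just inside the filter, with 1.31, 1.31, 1.05 and 0.911 FPKM in the controls and 1.49, 1.59, 0.974 and 1.05 after the knockdown, and was not called (log2 change 0.081, SE 0.049, adjusted p = 0.212). TGFB2 was under the filter, at 0.537, 0.622, 0.297 and 0.401 FPKM in the controls and 0.802, 0.862, 0.562 and 0.568 after the knockdown. Its values after the knockdown lay above those of the controls within each line, but it was not tested.

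INHBB (chr2:121103719-121109383), the beta B subunit of activins and inhibins, had the largest fall among members above 10 FPKM. It read 18.4, 18.1, 24.9 and 23.95 FPKM in the controls and 9.02, 9.20, 12.8 and 13.8 after the knockdown, and its log2 change was -0.88 (adjusted p = 1.69e-06, SE 0.033). Each sample after the knockdown lay below each control, at 49.9% of control in line 1 and 54.3% in line 2. INHBE (chr12:57849096-57851791), another activin subunit and a known stress-responsive gene, read 1.63, 1.58, 2.07 and 1.69 FPKM in the controls and 0.547, 0.801, 0.207 and 0.195 after the knockdown, with a log2 change of -0.95, given as a description for the reason above. With all genes tested, however low, its adjusted p was 0.00335, and without replicate 1 of the line 2 controls it was under the filter. The remaining level was 42.00% of control in line 1 and 10.7% in line 2. INHBA, the beta A subunit that forms activin A, stood just outside the filter with a mean just under 1 FPKM and is given as values only, 0.840, 0.660, 1.23 and 1.56 FPKM in the controls and 0.683, 0.655, 1.20 and 1.17 after the knockdown.

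The BMP ligands on the list were low. BMP4 was at 1.24, 1.27, 0.237 and 0.310 FPKM in the controls and 1.67, 1.79, 0.401 and 0.338 after the knockdown, and BMP6 lay between 0.268 and 0.703 FPKM in all samples. BMP2 read 0.0487, 0.0471, 0.0837 and 0.0216 FPKM in the controls and 0.159, 0.228, 0.115 and 0.121 after the knockdown. None of these 3 was tested. All 4 BMP2 values after the knockdown were above the 4 control values, at levels where few fragments stand behind a value.

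The 4 latent binding proteins were all called, 3 lower and LTBP3 higher. LTBP1 (chr2:33172369-33624575), which stores latent TGF-beta in the matrix, read 42.7, 43.9, 37.6 and 37.9 FPKM in the controls and 23.9, 22.3, 21.6 and 22.4 after the knockdown, a log2 change of -0.82 (adjusted p = 2.53e-06, SE 0.035). The groups did not overlap, and 53.3% and 58.2% of the control level remained in lines 1 and 2. LTBP2 (chr14:74964886-75079034), which binds microfibrils rather than latent TGF-beta, read 49.7, 50.2, 75.9 and 76.7 FPKM in the controls and 33.2, 32.3, 61.02 and 62.3 after the knockdown (log2 change -0.45, SE 0.054, adjusted p = 3.69e-04). Line 2 stood above line 1 in each condition, so the groups overlapped across lines but not within a line. LTBP4 (chr19:41099072-41135725), a partner in elastic fibre assembly, went from 29.4, 30.7, 15.2 and 15.2 to 26.2, 26.3, 13.5 and 13.2 FPKM (log2 change -0.18, SE 0.023, adjusted p = 4.82e-04).

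LTBP3 (chr11:65306030-65325699) moved the other way. It read 73.2, 75.8, 46.8 and 48.4 FPKM in the controls and 84.4, 84.1, 58.8 and 58.4 after the knockdown, a log2 change of 0.23 (adjusted p = 5.27e-04, SE 0.03), to 113% of control in line 1 and 123% in line 2. In the controls of line 1 LTBP3 was the most abundant of the 4 and in those of line 2 LTBP2 was. Without the line as block LTBP1 alone of the 4 was called, and adjusted p was 0.424 for LTBP2, 0.615 for LTBP3 and 0.838 for LTBP4.

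**Figure D2:**
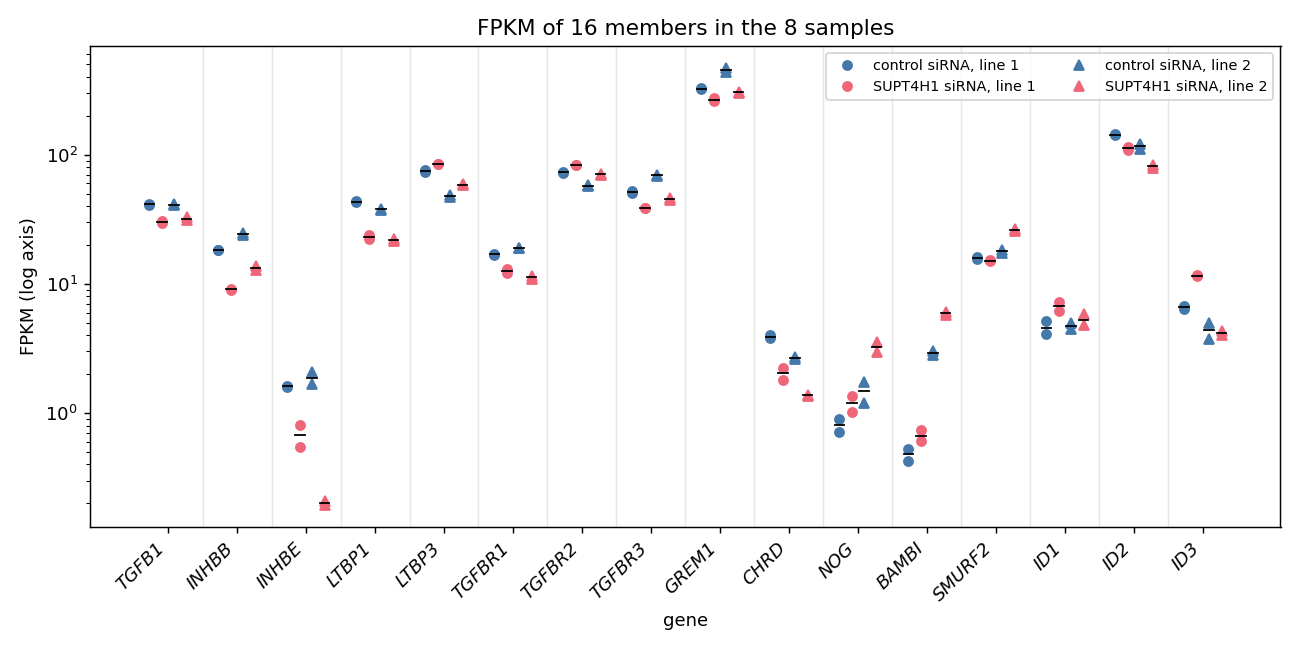
FPKM (y axis, log axis) of 16 members (x axis) in each of the 8 samples, circles for line 1, triangles for line 2, blue for control siRNA and red for SUPT4H1 siRNA, with a black bar at the mean of each pair of replicates. TGFB1, INHBB, LTBP1, TGFBR1 and CHRD lie lower after the knockdown in both lines, LTBP3 and TGFBR2 higher, and ID3 differs from control in line 1 only.

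The TGF-beta receptors did not move together. TGFBR1 (chr9:101867412-101916473), the type I receptor kinase, read 16.7, 17.2, 18.9 and 19.1 FPKM in the controls and 12.2, 13.04, 11.6 and 11.00 after the knockdown, and fell by 0.55 on the log2 scale (SE 0.059, adjusted p = 2.18e-04). Its groups did not overlap. TGFBR2 (chr3:30647994-30735633), the type II receptor that binds the ligand first, read 72.6, 73.3, 56.8 and 58.4 FPKM in the controls and 83.5, 82.5, 70.9 and 70.03 after the knockdown, and rose by 0.24 (SE 0.027, adjusted p = 2.93e-04). TGFBR3 (chr1:92145900-92371559), the co-receptor betaglycan, read 50.8, 52.1, 69.9 and 68.7 FPKM in the controls and 38.7, 38.3, 46.3 and 44.9 after the knockdown, and its log2 change was -0.50 (adjusted p = 4.02e-05, SE 0.039). It fell to 74.9% of control in line 1 and 65.8% in line 2, with no overlap between the groups.

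Of the activin and BMP receptors only ACVR2A was called, and it fell. ACVR2A (chr2:148602086-148688396), a type II receptor for activins and BMPs, read 23.4, 23.2, 19.95 and 20.3 FPKM in the controls and 19.6, 20.7, 13.2 and 13.2 after the knockdown (log2 change -0.39, SE 0.068, adjusted p = 0.00244). The type I receptors ACVR1, ACVR1B, ACVRL1 and BMPR1A and the type II receptor BMPR2 had log2 changes from -0.055 (BMPR2) to 0.063 (ACVR1B), and adjusted p was between 0.115 and 0.953. Their levels ranged from a mean of 6.60 FPKM for ACVR1B to 21.1 for ACVR1. ACVR2B and BMPR1B were not tested, with means of 0.224 and 0.0312 FPKM. After scaling by median ratios BMPR2 was called lower (log2 change -0.087, adjusted p = 0.0248).

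The SMAD mRNAs changed little. SMAD6 (chr15:66994674-67074337), an inhibitory SMAD of the BMP side, read 14.6, 13.9, 8.76 and 7.51 FPKM in the controls and 15.8, 15.5, 9.51 and 10.2 after the knockdown, a log2 change of 0.19 (adjusted p = 0.0158, SE 0.049), and was the 1 member of the family that was called. SMAD7, the inhibitory SMAD of the TGF-beta side and a direct target of the pathway, read 7.83, 6.999, 5.36 and 5.32 FPKM in the controls and 8.96, 7.97, 5.14 and 5.43 after the knockdown and was not called (log2 change 0.078, SE 0.054, adjusted p = 0.275). The receptor-activated SMAD1, SMAD2, SMAD3, SMAD5 and SMAD9 had log2 changes of -0.07, 0.087, 0.13, 0.02 and -0.064, and the shared SMAD4 of -0.022. In single lines SMAD1 was lower in line 2 (-0.16, adjusted p = 0.0259) and SMAD2 higher in line 1 (0.13, adjusted p = 0.0333), and neither differed between the lines by the test of the difference (adjusted p = 0.135 and 0.36). SMAD6 was called in line 2 (0.25, adjusted p = 0.0128) and not in line 1 (0.12, adjusted p = 0.174; difference, adjusted p = 0.443).

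SMAD2 and SMAD3 lay near the threshold (adjusted p = 0.0559 and 0.0517). SMAD2 was called without replicate 2 of the line 2 controls (adjusted p = 0.0224). SMAD3 was called without replicate 1 or 2 of the line 1 controls (adjusted p = 0.0477 and 0.044) and without replicate 2 of the line 1 knockdown (0.0228). It was also called with genes under a mean of 5 FPKM left out (0.0426) and with symbols whose locus spans under 200 bases left out (0.0467).

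Secreted antagonists were all called, 5 lower and NOG higher. GREM1 (chr15:33010205-33026870), gremlin 1, a BMP antagonist that fibroblasts secrete, read 324, 326, 436 and 471 FPKM in the controls and 259, 274, 303 and 304 after the knockdown, a log2 change of -0.43 (adjusted p = 6.80e-04, SE 0.059). Its groups did not overlap, and 82.03% and 66.97% of control remained. CHRD (chr3:184097861-184107617), chordin, which also binds BMPs, read 3.78, 4.05, 2.62 and 2.71 FPKM in the controls and 1.80, 2.25, 1.36 and 1.38 after the knockdown (log2 change -0.67, SE 0.052, adjusted p = 4.41e-05), which is 51.8% of control in line 1 and 51.4% in line 2. NOG (chr17:54671060-54672951), noggin, read 0.898, 0.713, 1.20 and 1.73 FPKM in the controls and 1.02, 1.36, 2.96 and 3.53 after the knockdown, and rose by 0.53 on the log2 scale (SE 0.12, adjusted p = 0.00868), with each knockdown sample above both controls of its line. By line, NOG was called in line 2 (0.79, adjusted p = 0.00116) and not in line 1 (0.28, adjusted p = 0.127). The difference between the lines was not called (adjusted p = 0.111).

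The follistatin family fell by small amounts. FST, follistatin, which binds activins, read 44.9, 44.1, 84.3 and 86.5 FPKM in the controls and 38.9, 40.4, 78.5 and 78.2 after the knockdown, a log2 change of -0.14 (adjusted p = 0.00172, SE 0.023). FSTL1, one of the most abundant members, went from 646, 654, 799 and 819 to 598, 616, 734 and 752 FPKM (log2 change -0.11, SE 0.027, adjusted p = 0.0113), and FSTL3, another activin binder, from 4.45, 4.74, 7.60 and 7.97 to 4.11, 4.33, 7.15 and 7.14 (log2 change -0.10, SE 0.031, adjusted p = 0.0253). The call of FSTL3 was lost without replicate 1 of the line 1 knockdown (adjusted p = 0.069), without replicate 1 or 2 of the line 2 knockdown (0.0597 and 0.0615), and without replicate 2 of the line 1 or line 2 controls (0.0724 and 0.0742).

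Among regulators inside the cell and at its membrane, BAMBI rose most. BAMBI (chr10:28966424-28971868), a pseudoreceptor that lacks a kinase domain and dampens the pathway, read 0.531, 0.426, 2.81 and 3.05 FPKM in the controls and 0.604, 0.733, 5.77 and 6.03 after the knockdown, a log2 change of 0.49 (adjusted p = 0.0106, SE 0.12). It was under 1 FPKM in line 1 and about 6.12 times as high in the controls of line 2. The co-repressors TGIF1 (-0.19, adjusted p = 0.01) and TGIF2 (-0.10, adjusted p = 0.0483) and the feedback inhibitor PMEPA1 (-0.17, adjusted p = 0.0207) fell. By line, TGIF1 and TGIF2 were called in line 2 (adjusted p = 0.00982 and 0.0473) and not in line 1 (0.114 and 0.342). PMEPA1 was called in line 1 (0.0273) and not in line 2 (0.179). For none of them was the difference between the lines called (adjusted p = 0.476, 0.573 and 0.501). SMURF1, a ubiquitin ligase that targets SMADs and receptors, rose (0.18, adjusted p = 0.0187). In single lines SMURF1 was called in line 2 (0.29, adjusted p = 9.21e-04) and not in line 1 (0.065, adjusted p = 0.29; difference, adjusted p = 0.0566). It was the 1 tested member with all 4 knockdown samples above all 4 controls, a pattern of 11.3% of all genes. The opposite order, all 4 below, was seen in 8 members and in 5.17% of all genes.

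The calls of TGIF2, SMURF1 and PMEPA1 depended on single libraries. TGIF2 was called only without replicate 2 of the line 1 controls (0.0351) among the 8 fits that leave out a sample, and the others gave adjusted p = 0.0688 to 0.128. Testing all genes, however low, gave 0.076. SMURF1 was lost without any 1 sample of line 2 (adjusted p = 0.0524 to 0.0547), and PMEPA1 without replicate 1 or 2 of the line 1 controls or replicate 2 of the line 2 controls (0.0556 to 0.0584). TGIF2 and SMURF1 also lost their call with line and replicate number together as block. The co-repressors SKI and SKIL were not called (log2 change 0.034 and -0.11, adjusted p = 0.352 and 0.0657). SKIL was called lower after scaling by median ratios (0.0286), without replicate 1 of the line 2 knockdown (0.0478) and without replicate 2 of the line 1 controls (0.0476).

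The targets split. ID2 (chr2:8822113-8824583), one of the inhibitor of DNA binding proteins that BMP signals induce, was the most abundant of its family and fell, with 143, 143, 111 and 121 FPKM in the controls and 109.7, 115, 79.4 and 83.1 after the knockdown and a log2 change of -0.43 (adjusted p = 1.40e-04, SE 0.042). ID1 (chr20:30193086-30194317) read 4.06, 5.12, 4.44 and 5.01 FPKM in the controls and 7.24, 6.13, 5.82 and 4.77 after the knockdown, a log2 change of 0.30 (adjusted p = 0.0378, SE 0.10). In single lines ID1 was called in line 1 (0.46, adjusted p = 0.0165) and not in line 2 (0.13, adjusted p = 0.382; difference, adjusted p = 0.262). ID3 (chr1:23884421-23886285) read 6.75, 6.41, 3.76 and 5.01 FPKM in the controls and 11.5, 11.6, 4.04 and 4.30 after the knockdown and was not called over both lines (log2 change 0.34, SE 0.15, adjusted p = 0.0968), although it was without replicate 2 of the line 2 controls (0.0146). ID4, under the filter, ranged from 0.689 to 1.33 FPKM. TGFBI (chr5:135364584-135399507), a matrix protein named for its induction by TGF-beta and the most abundant member, read 706, 716, 949.8 and 960.3 FPKM in the controls and 793, 815, 918 and 907 after the knockdown and was not called (log2 change 0.056, SE 0.049, adjusted p = 0.392). The call of ID1 was kept without replicate 2 of the line 2 knockdown (0.0138) or of the line 2 controls (0.0272), and lost without any other 1 sample (adjusted p = 0.0569 to 0.097), after scaling by median ratios (0.0566) and with no filter on FPKM (0.0938). It was also lost with line and replicate number together as block.

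The next comparison asks whether both lines responded alike. In line 1 alone 15 members fell and 6 rose, against 11.2% and 18.2% of all genes, and in line 2 alone 17 fell and 10 rose, against 15.5% and 26.3%. The response differed between the lines in 11 of the 43, or 25.6%, where 8.87% of all genes differed, and in 10 of 42 without INHBE. Of the 11, LTBP2, SMURF2, ACVR2A and TGFBI were called in each of the 15 other fits run for this difference, and 7 were lost in at least 1. The count fell to 6 without replicate 1 of the line 1 controls, and to 7 without their replicate 2 or without replicate 2 of the knockdown in line 1 or line 2.

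SMURF2 (chr17:62540735-62658386), the ubiquitin ligase closely related to SMURF1, read 15.5, 16.2, 17.4 and 18.3 FPKM in the controls and 14.97, 15.2, 25.6 and 26.8 after the knockdown. In line 2 it rose by 0.53 on the log2 scale (adjusted p = 1.73e-05) and in line 1 it was not called (-0.064, adjusted p = 0.24), and the difference was called (adjusted p = 5.37e-04). BAMBI was called in line 2 (0.81, adjusted p = 3.55e-05) and not in line 1 (0.17, adjusted p = 0.0825; difference, adjusted p = 0.0048). For BAMBI a pseudocount of 1 weighs more in line 1, where its FPKM is under 1, and with a pseudocount of 0.1 the difference was not called. ID3 went the other way, with 0.73 in line 1 (adjusted p = 6.50e-04) and -0.05 in line 2 (adjusted p = 0.694; difference, adjusted p = 0.00829). TGFBI rose in line 1 (0.18, adjusted p = 0.00157) and not in line 2 (-0.066, adjusted p = 0.0783; difference, adjusted p = 0.00596).

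In 5 members the fall was called in both lines and its size differed, with the larger fall in line 2 in 4 of them. For ACVR2A the log2 change was -0.20 in line 1 and -0.57 in line 2 (difference, adjusted p = 0.00217). The same pair of values was -0.40 and -0.70 for TGFBR1 (adjusted p = 0.0131), -0.29 and -0.58 for GREM1 (adjusted p = 0.0166) and -0.41 and -0.59 for TGFBR3 (adjusted p = 0.0245). For INHBE it was -0.64 and -1.26, given without a test. LTBP2 fell more in line 1, with -0.59 against -0.30 (adjusted p = 0.00264). SMAD3 was called higher in line 2 (0.25, adjusted p = 5.52e-04) and not in line 1 (0.014, adjusted p = 0.789; difference, adjusted p = 0.0198). For INHBB, LTBP1, CHRD and TGFB1 the difference was not called, with adjusted p between 0.203 and 0.725, which does not show that the lines respond alike.

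**Figure D3:**
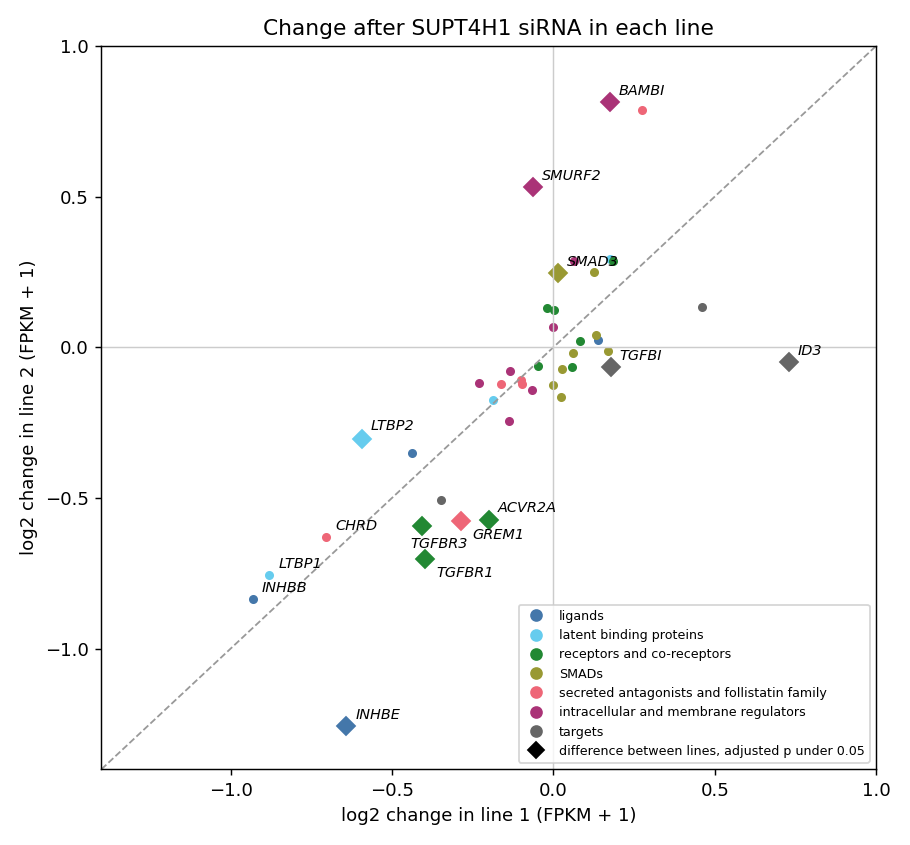
Log2 change of FPKM + 1 after the knockdown in line 1 (x axis) and line 2 (y axis) for the 43 tested members, coloured by role, with a dashed line of equal change. Diamonds are the 11 members whose change differed between the lines; SMURF2 and BAMBI lie above the line of equal change and ID3 and INHBE far below it.

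The lines differed in the members' levels before the knockdown. In control samples 14 members were higher in line 2 and 19 lower, against 23.9% and 33.3% of all genes, so 32.6% and 44.2% of the tested members. TGFBI, FSTL1, GREM1 and ID2 were the 4 most abundant members in the controls of both lines. FST, with 44.9, 44.1, 84.3 and 86.5 FPKM in the controls, was higher in line 2 by 0.92 on the log2 scale (adjusted p = 3.74e-08). BAMBI, counted among the 14, was higher by 1.41, given as a description. It passed the filter only through line 2, so a higher level there was built in. NOG, among the 14, and TGFB3, among the 19, also stood under 1 FPKM in the controls of their lower line (means 0.805 and 0.978). LTBP4 was lower in line 2 (-0.94, adjusted p = 5.09e-08), as were SMAD6 (-0.74, adjusted p = 1.75e-05) and LTBP3 (-0.63, adjusted p = 3.32e-07). TGFB1 did not differ beyond its spread (-0.016, adjusted p = 0.687). With 1 source of cells per line these differences describe these 2 lines only.

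**Figure D4:**
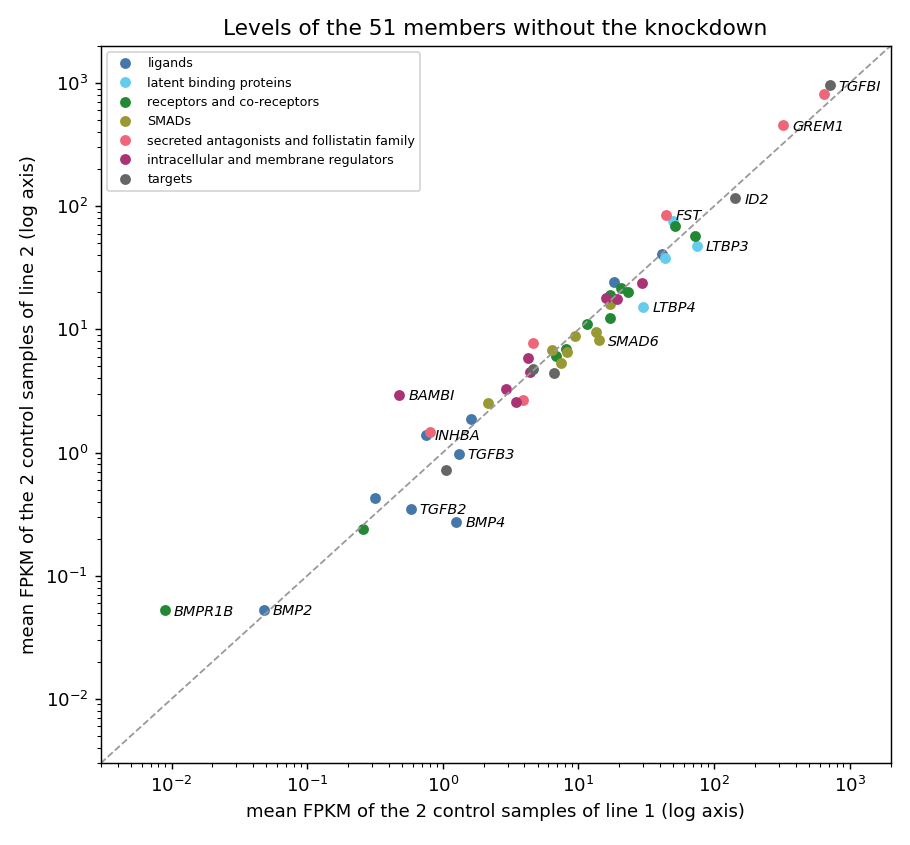
Mean FPKM of the 2 control samples of line 1 (x axis, log axis) and of line 2 (y axis, log axis) for the 51 members, coloured by role, with a dashed line of equal level. Levels run from under 0.1 FPKM for BMPR1B and BMP2, at the lower left, up to TGFBI at the top right, and BAMBI and BMPR1B, both higher in line 2, lie farthest from the line of equal level.

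Other genes of the pathway were taken from 5 lists that do not contain the members. These lists too were chosen with earlier results of these data known, so their shares are a description. Of the 134 genes on them 133 are in the tables and 87 were tested, of which 27 fell and 19 rose, or 31.03% and 21.8%, against 15.0% and 26.4% of all genes. Without the line as block 6 fell and 1 rose, where 1.73% and 3.53% of all genes did. The response differed between the lines in 29 of the 87, or 33.3%, against 8.87% of all genes. Of 27 known TGF-beta targets tested 16 fell and 4 rose, or 59.3% and 14.8%, with a median log2 change of -0.23. Without the block 3 fell and 0 rose (1 higher at an unadjusted p under 0.05 in limma), and in 13 of the 27, or 48.1%, the response differed between the lines. The 4 largest falls were TNC (-1.30), a matrix glycoprotein, CILP (-0.90), a cartilage matrix protein, CTGF (-0.82), a matricellular growth regulator, and ELN (-0.75), elastin. IGFBP3 (0.53), an insulin-like growth factor binder, TAGLN (0.51), an actin-binding protein, CDKN2B (0.33), a cell cycle inhibitor, and CNN1 (0.31), calponin, rose. CNN1, under 1 FPKM in line 1, passed the filter through line 2. It was called in line 2 (0.54) and not in line 1 (0.085), and its response differed between the lines.

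CTGF read 103, 103, 215 and 231 FPKM in the controls and 53.7, 50.2, 135 and 146 after the knockdown. The groups overlapped across the lines and not within them, and adjusted p was 4.71e-05 with the line as block and 0.377 without it. Of 7 tested BMP targets RUNX2, a transcription factor of bone, and JUNB, an AP-1 subunit that is also on the TGF-beta list, fell (-0.30 and -0.20), and GATA2, a transcription factor, rose (0.17). That is 28.6% lower and 14.3% higher, against 15.0% and 26.4% of all genes. Without the block 0 of the 7 were called (at an unadjusted p under 0.05 in limma 0 were higher and 1 lower).

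Genes of ligand activation and co-receptors were lower in 8 and higher in 5 of 22 tested, or 36.4% and 22.7%, the latter near the share of all genes. Without the block 2 were lower and 0 higher (1 higher at an unadjusted p under 0.05 in limma). In 11 of the 22, or 50%, the response differed between the lines, against 8.87% of all genes. THBS1, thrombospondin 1, which can activate latent TGF-beta, fell from 1459.6, 1431, 1408 and 1452 to 831, 833, 795 and 814 FPKM (log2 change -0.81, SE 0.028, adjusted p = 1.13e-06). BGN, biglycan (-0.58), ASPN, asporin (-0.58), and FBN1, the fibrillin to which latent complexes attach (-0.57), made up the rest of the 4 largest falls. ITGB1, an integrin chain (0.20), NEO1, a receptor of repulsive guidance molecules (0.19), MMP14, a membrane protease (0.14), and BMP1, a procollagen protease (0.089), had the largest rises.

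Among 29 other antagonists and intracellular regulators 7 rose and 2 fell. The 24.1% that rose is near the 26.4% of all genes, and 6.90% fell where 15.0% of all genes did. Without the block 1 rose and 1 fell. BMPER, a BMP-binding protein related to chordin, read 27.1, 28.1, 25.8 and 27.3 FPKM in the controls and 12.2, 12.7, 16.4 and 16.4 after the knockdown, a log2 change of -0.88 (adjusted p = 8.30e-05, SE 0.077), and TAB2, an adaptor of the kinase TAK1, fell by 0.064. NBL1, a BMP antagonist of the DAN family, read 100.04, 99.3, 90.1 and 93.96 FPKM in the controls and 123, 119, 142 and 142 after the knockdown (log2 change 0.45, SE 0.063, adjusted p = 8.26e-04). FKBP1A, which binds the type I receptor (0.27), TGFBRAP1 (0.17) and TAB3 (0.16) were the next largest rises. Of 24 other ligands 3 were tested, and GDF5, a BMP-type growth factor of joints, rose from 5.35, 5.59, 12.5 and 13.5 to 12.1, 11.3, 22.6 and 21.2 FPKM (log2 change 0.84, SE 0.057, adjusted p = 2.18e-05), as did GDF11 (0.20), while without the block 0 of the 3 were called (2 higher at an unadjusted p under 0.05 in limma).

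The span from first to last annotated base had a median of 46.5 kb over the tested members and 27.2 kb over all genes tested, and 30.03 kb and 19.7 kb for the members that fell and rose. Spearman's rho between span and log2 change was -0.0320 across the 43 members and -0.0439 across all genes, given as a description across genes of the same libraries. LTBP1, at 452 kb, and INHBB, at 5.7 kb, were both among the largest falls. The median of the members that fell and the rho of the members include INHBE (2.70 kb), which passed the filter only through its controls.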

How the data were processed

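The authors deposited one table per sample with FPKM values, lower and upper bounds and a status per gene, on hg19 per the submitters' processing notes. The sources used here do not name the aligner, quantification tool, annotation or use of strand, so reads of overlapping antisense genes cannot be told apart. Rows of one symbol were summed. A gene was tested where its mean was at least 1 FPKM and its status OK in all samples, which left 11486 genes, and the status left out 12. The test was limma 3.58.1 (R 4.3.3) on log2(FPKM + 1) allowing the variance to follow the mean (trend). It was 2-sided, p-values were adjusted by Benjamini and Hochberg over the 11486 genes with a threshold of 0.05, and it was checked on simulated data. The model held the line and the siRNA. Responses of each line, their difference and control levels came from 4 group means.

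Samples of a line share their cells: deviations of control and knockdown samples of the same line correlated at 0.713 to 0.810 across genes, so the line served as block, and counts without it are given beside those of the members and lists. Members and lists were chosen with earlier results of these data known. All members are named or counted, and of the other lists the called genes, at most the 4 largest per direction. Promoter windows are RefSeq's (GRCh38.p14). Alternatives changed the block, pseudocount, filter, scaling, trend, repeated symbols, short loci (added after seeing the data) and each sample. Plots used Python 3.11.15 and matplotlib 3.10.9.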

Additional observations from a re-analysis of the deposited data

Results flagged for a closer look

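In 11 members the response to the knockdown differed between the lines by the test of the difference itself (limma, adjusted p under 0.05). Each value below is the log2 change in line 2 minus that in line 1. The difference was -0.78 (SE 0.13) for ID3, -0.61 (SE 0.13) for INHBE, -0.37 for ACVR2A, -0.31 for TGFBR1, -0.29 for GREM1, -0.24 for TGFBI and -0.19 for TGFBR3. It was 0.64 (SE 0.094) for BAMBI, 0.60 (SE 0.053) for SMURF2, 0.29 for LTBP2 and 0.23 for SMAD3. INHBE passed the filter only through its controls, so its value is a description.

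ACVR2A, TGFBI, LTBP2 and SMURF2 kept this call in all 15 other fits. ID3 lost it with no filter on FPKM (adjusted p = 0.0563) and BAMBI with a pseudocount of 0.1 (0.0818). TGFBR1 lost it without replicate 1 of the line 1 controls or replicate 2 of the line 2 knockdown (adjusted p up to 0.0574). GREM1 and INHBE lost it with no filter, without either control of line 1, without replicate 2 of the line 1 knockdown and without either knockdown sample of line 2 (up to 0.0715 and 0.0823). SMAD3 lost it without either control of line 1, replicate 2 of the line 1 knockdown, replicate 1 of the line 2 knockdown or replicate 1 of the line 2 controls (up to 0.0751). TGFBR3 lost it with no trend and without either control or either knockdown sample of line 1, replicate 2 of the line 2 knockdown or replicate 1 of the line 2 controls (up to 0.0955).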

How the results depend on the processing

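Without the line in the model (no replicate block) 0 members were called higher in place of 7, and 6 lower in place of 18. All 25 called members kept their direction in those of the 17 other settings in which they were tested, 20 kept their call in each setting with a block in which they were tested (INHBE in 14 of 16, NOG, CHRD and BAMBI in 15), and FSTL3, TGIF2, SMURF1, PMEPA1 and ID1 did not. Leaving out 1 sample gave 5 to 8 members higher, 15 to 17 lower, 6 to 11 whose response differed between the lines and 29 to 35 that differed between the lines' controls; the lowest of the differing responses, 6, came without replicate 1 of the line 1 controls, and 7 came without its replicate 2 or without replicate 2 of either knockdown. The labels number replicates in each group but say nothing of a shared day. Same-numbered samples deviated together weakly (correlation 0.196 in line 1 and 0.0846 in line 2), and with line and replicate number as replicate block 5 members rose and 17 fell, TGIF2, SMURF1 and ID1 losing their call (adjusted p = 0.0855, 0.0508 and 0.0858). Scaling by median ratios moved the median log2 change of all genes from 0.031 to 0.000612, and gave 6 members higher and 20 lower. Every other setting left these counts within 1.5 times those reported. SUPT4H1 fell in each setting. Some members under 10 FPKM rest on wide deposited intervals, up to 48.5% to either side for INHBE, and others on narrow ones, at most 4.05% for SMAD4. A further 8 members were too low to test.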

Other observations

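Ratios of FPKM between members of a role show the split within it sample by sample. The ratio of LTBP1 to LTBP3 was 0.583, 0.580, 0.803 and 0.783 in the controls and 0.283, 0.265, 0.367 and 0.383 after the knockdown, in the order line 1 then line 2, with 2 replicates each. The ratio of TGFBR1 to TGFBR2 was 0.231, 0.234, 0.333 and 0.327 in the controls and 0.146, 0.158, 0.164 and 0.157 after the knockdown. In both ratios each knockdown sample lay below each control. The ratio of ID2 to ID1 was 35.2, 28.01, 25.04 and 24.04 in the controls and 15.1, 18.8, 13.7 and 17.4 after the knockdown, and here too the groups did not overlap. The ratio of ID2 to ID3 was 21.2, 22.4, 29.6 and 24.04 in the controls and 9.55, 9.89, 19.7 and 19.3 after the knockdown, where the knockdown samples of line 2 lay below the controls of either line and those of line 1 lower still. These pairs were chosen after their values were seen, and the ratios were not tested.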
